A study of Bos taurus with 9 samples.

Results

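The Hippo cascade was followed through 10 of its genes in single bovine blastocysts: the kinases *STK3*, *STK4*, *LATS1* and *LATS2*, their scaffold *SAV1*, the LATS cofactors *MOB1A* and *MOB1B*, the membrane scaffold *NF2*, and the angiomotins *AMOT* and *AMOTL2*. They were taken by symbol from the 21512 genes of the deposited table, and each of the 10 has a row there. The libraries come from 5 wild-type (WT) and 4 *TEAD4* -/- (KO) blastocysts of *Bos taurus*, 1 library per whole D8 embryo, with inner cell mass and trophectoderm together. All were produced and cultured *in vitro* in synthetic oviduct fluid. According to the study's methods, oocytes of both groups received *Cas9* mRNA before fertilization with semen of a single bull, and those of the edited group also received a guide RNA against *TEAD4*. WT embryos carried no mutated allele, and KO embryos only frame-disrupting indels, which can differ from embryo to embryo. The columns are named WT_1 to WT_5 and TE_1 to TE_4, where TE_ marks a KO embryo.

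In the canonical cascade the MST kinases, MST1 (gene *STK4*) and MST2 (gene *STK3*), bind the scaffold SAV1 and phosphorylate the LATS kinases and their MOB1 cofactors. Active LATS kinases phosphorylate the coactivators YAP and TAZ (gene *WWTR1*), which then stay in the cytoplasm and do not reach the TEAD transcription factors. NF2 brings LATS kinases to the plasma membrane, and angiomotins bind both NF2 and YAP. In the mouse, polarized outer cells keep this cascade off and nuclear YAP joins TEAD4 to switch on *Cdx2*, whereas angiomotin and NF2 keep LATS active in inner cells. *LATS2*, *NF2* and *AMOTL2* have also been described as targets of YAP and TEAD in other cells, which makes them feedback genes of the same pathway. RNA levels do not show the phosphorylation or the position of any of these proteins.

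Values are in TPM, the abundance of a transcript relative to its library, which accounts for transcript length and allows levels of different genes to be set side by side. The reads behind a TPM value are not kept in the table, so the counting error of single values is unknown. *TEAD4* RNA was present in every library, between 18.0 and 54.3 TPM in WT and between 12.5 and 42.8 TPM in KO embryos, so the transcript level does not separate the genotypes and is no check of them (log2 fold change −0.51 with a standard error, SE, of 0.42). TE_1 stood apart from the other libraries. It had the lowest median-of-ratios size factor, 0.776 against 0.966 to 1.26 in the others, and held the lowest of the 9 values for 28.0% of the 14599 genes tested. The number of genes above 0 TPM was 14807 to 16678 in WT and 14776 to 15375 in KO libraries (exact permutation p = 0.0635), and every KO library was below 4 of the 5 WT libraries. The 7 trophectoderm markers looked up were above 0 in each library (summed level 4019 to 17926 TPM in WT and 6586 to 12382 TPM in KO), as were 4 of 6 epiblast markers (786 to 2074 and 1361 to 2167 TPM) and 5 of 6 hypoblast markers (84.0 to 168 and 47.9 to 157 TPM). *POU5F1* made up most of the epiblast sums, with 773 to 1693 TPM in WT and 1352 to 2142 TPM in KO. It was the only epiblast marker tested with a higher mean in KO. According to the paper, POU5F1 and CDX2 do not exclude each other in bovine blastocysts as they do in the mouse. *POU5F1*, and the sums it dominates, are thus not specific to the epiblast here. Lower in KO were 5 of 7 trophectoderm, 4 of 5 epiblast and 5 of 6 hypoblast markers tested, beside 55.8% of all genes tested. Of 8 markers of cumulus and granulosa cells 4 were above 0 in each library (summed level 19.3 to 37.3 TPM in WT and 4.39 to 31.1 TPM in KO). *PTPRC* and *HBB* were listed at 0 in all 9 libraries, while another blood symbol, *HBA*, was at 54.1 to 314 TPM. The 3 sperm markers summed to 1.66 to 121 TPM in WT and 0.779 to 74.9 TPM in KO embryos. Whether the cumulus, blood and sperm markers play a part in the results was not tested. In whole embryos, fewer cells of a type and less RNA per cell cannot be told apart.

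Every gene of the cascade was above 0 TPM in each of the 9 embryos. *NF2* was the most abundant, with a mean of 23.6 TPM over all embryos, followed by *MOB1A* (19.7 TPM) and *STK3* (16.3 TPM). *MOB1B* (13.2 TPM), *AMOTL2* (12.1 TPM) and *SAV1* (11.7 TPM) lay close together: *MOB1B* was above *AMOTL2* in 4 of 9 embryos, and *AMOTL2* above *SAV1* in 5 of 9. *STK4* (5.90 TPM), *AMOT* (4.54 TPM), *LATS2* (3.54 TPM) and *LATS1* (2.27 TPM) formed the lower end. The step from *SAV1* to *STK4* was the one held by most embryos, 8 of 9, and each of the other steps was held by 4 to 7 of 9. The LATS kinases, at the centre of the cascade, were thus its least abundant transcripts, with mean levels above those of 39.3% (*LATS2*) and 32.2% (*LATS1*) of the genes tested, and *NF2* was above 70.8%.

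**Figure D1:**
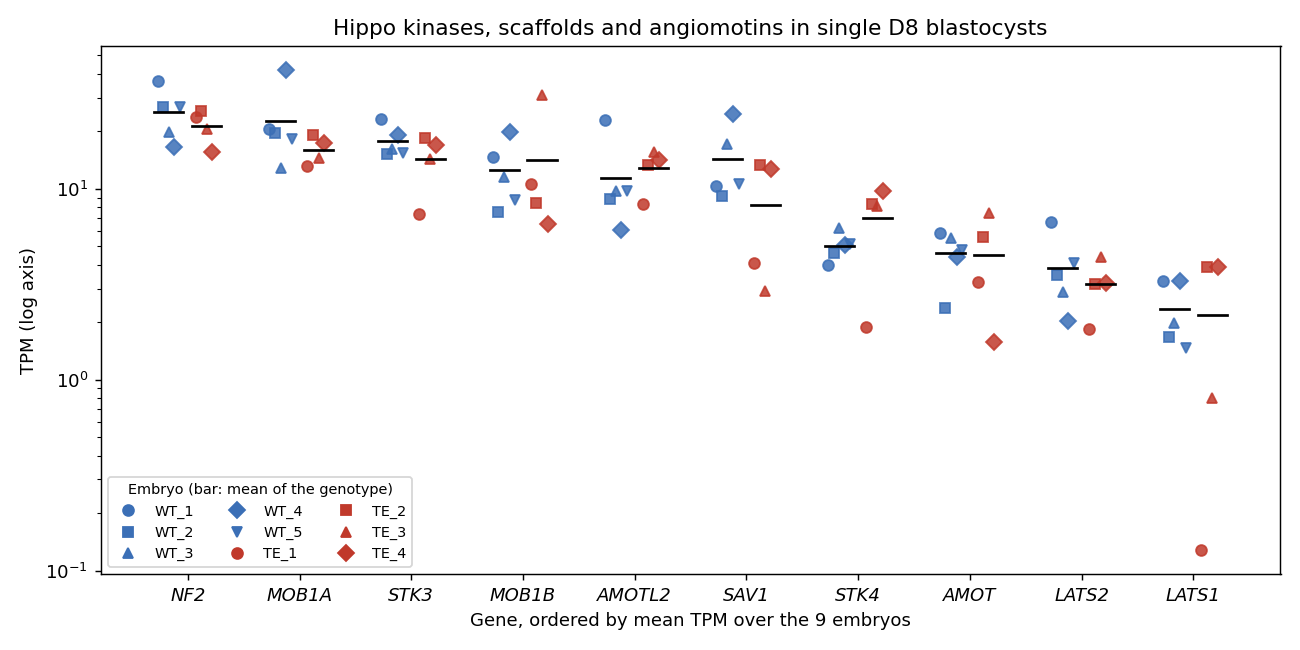
TPM of each gene of the cascade (log axis) in 5 WT embryos (blue, left) and 4 KO embryos (red, right), with 1 symbol per embryo and a bar at the mean of each genotype. The genotypes overlap in every gene, and TE_1 lies lowest for *STK3*, *STK4*, *LATS1* and *LATS2*, with *LATS1* at 0.128 TPM.

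No difference between KO and WT blastocysts passed the test in any of the 10 genes. Fitted together with all 14599 genes (limma on log2(TPM + 1)), 0 of 10 had an adjusted p-value under 0.05, and 0 of 10 an unadjusted one, against 5.90% of all genes with an unadjusted p-value under 0.05. Among all genes tested, 3 (0.0205%) combined that adjusted p-value with an absolute log2 fold change above 1. The study, which ran DESeq2 on counts, called more genes. It also reports that clustering on Hippo signalling genes grouped the embryos by genotype. The reason for the difference in calls was not tested. For 7 of 10 genes KO embryos had a lower mean of log2(TPM + 1), beside 55.8% of all genes tested. The median log2 fold change was −0.20 over the 10 genes and −0.046 over all genes. WT and KO values did not separate in any of the 10, which is near the share of all genes where they did, 2.03%. Without TE_1 the number lower was 6 of 10 and the median −0.033, beside 45.7% and 0.038 over all genes. The 95% intervals of the fold change, on the TPM + 1 scale, give the sizes of change that these embryos leave possible. For *NF2*, the most precise, the interval ran from 0.563-fold to 1.34-fold, and for *SAV1*, the least precise, from 0.273-fold to 1.10-fold.

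**Figure D2:**
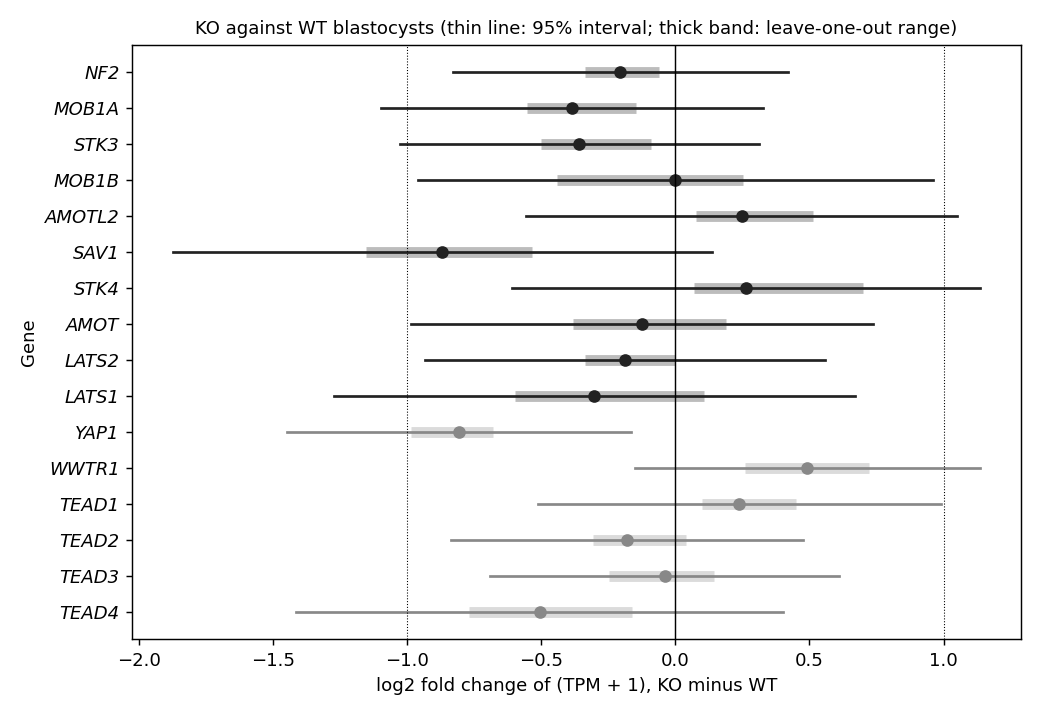
Log2 fold change of (TPM + 1), KO minus WT, for the 10 genes of the cascade (black) and for the effectors and *TEAD4* (grey), with the 95% interval from limma as a thin line, the range over fits that leave out 1 embryo as a thick band, and dotted lines at −1 and 1. All 10 intervals of the cascade include 0, and *SAV1* has the lowest value, −0.87.

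*SAV1*, the scaffold that holds MST kinases together, had the largest difference of the 10. WT_1 to WT_5 held 10.3, 9.15, 17.2, 24.7 and 10.6 TPM, and TE_1 to TE_4 held 4.08, 13.3, 2.93 and 12.7 TPM. TE_1 and TE_3 were below every WT embryo, and TE_2 and TE_4 were inside the WT range. WT embryos averaged 14.4 ± 6.54 TPM (SD, n = 5) and KO embryos 8.24 ± 5.49 TPM (SD, n = 4), and the log2 fold change was −0.87 (SE 0.46, limma-adjusted p = 0.884). This difference did not pass the two-sided exact permutation test either (p = 0.175), which does not show that the genotypes are alike. It was −0.53 without TE_3, −1.15 without TE_2 (unadjusted p = 0.0332, limma-adjusted p = 0.556) and −1.13 without TE_4 (unadjusted p = 0.0380, limma-adjusted p = 0.819).

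Of the MST kinases, *STK3* had a lower and *STK4* a higher mean in KO embryos, neither past the test. *STK3* was at 23.3, 15.3, 16.1, 19.2 and 15.4 TPM in the WT embryos and, from TE_1 to TE_4, at 7.36, 18.5, 14.3 and 16.9 TPM. TE_1 and, narrowly, TE_3 were below the WT range, and TE_2 and TE_4 were within it. The log2 fold change was −0.36 (SE 0.31, limma-adjusted p = 0.954), and between −0.50 without TE_2 and −0.091 without TE_1. *STK4* was at 3.96, 4.63, 6.24, 5.08 and 5.14 TPM in WT and at 1.90, 8.32, 8.08 and 9.75 TPM in KO embryos. TE_2, TE_3 and TE_4 were above every WT embryo, and TE_1 was below every one. The means were 5.01 ± 0.832 TPM (SD, n = 5) and 7.01 ± 3.49 TPM (SD, n = 4), which gave a log2 fold change of 0.26 (SE 0.40, limma-adjusted p = 0.982). Without TE_1 the log2 fold change of *STK4* was 0.70, with an unadjusted p of 0.0309 and a limma-adjusted p of 0.722, and without TE_4 it was 0.068. The symbol *MST1* in the table belongs to macrophage stimulating 1, a secreted protein that shares its name with the kinase, and averaged 1.07 ± 0.847 TPM (SD, n = 5) among WT and 0.927 ± 0.527 TPM (SD, n = 4) among KO embryos.

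*LATS1* had a 30.4-fold range over the 9 embryos, the widest of the 10 genes, which rests on the value of 0.128 TPM in TE_1. Its levels were 3.30, 1.68, 1.98, 3.30 and 1.47 TPM from WT_1 to WT_5, against 0.128, 3.87, 0.803 and 3.88 TPM from TE_1 to TE_4. TE_1 and TE_3 were below all WT embryos, and TE_2 and TE_4 were above all of them, so that the means were close, 2.34 ± 0.890 TPM (SD, n = 5) and 2.17 ± 1.99 TPM (SD, n = 4). The log2 fold change of −0.30 (SE 0.45, limma-adjusted p = 0.982) became 0.11 without TE_1, and ran from −0.60 (without TE_4) to that value with 1 embryo left out. With a pseudocount of 0.1 TPM, which gives the low TE_1 value more weight, it was −0.79 (SE 0.79). *LATS2*, the other kinase that phosphorylates YAP and TAZ, showed no such division. It was at 6.69, 3.54, 2.89, 2.03 and 4.08 TPM in WT and at 1.85, 3.16, 4.41 and 3.21 TPM in KO embryos, with only TE_1 outside the WT range. Its log2 fold change was −0.19 (SE 0.34), between −0.34 without WT_4 and −0.0028 without WT_1, the embryo with the highest value.

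The MOB1 cofactors each had 1 embryo far above the rest, of different genotype. *MOB1A* was at 20.7, 19.7, 12.9, 41.9 and 18.3 TPM in WT and at 13.1, 19.1, 14.5 and 17.3 TPM in KO embryos, and all KO embryos were inside the WT range. Its log2 fold change of −0.39 (SE 0.33, limma-adjusted p = 0.953) ran from −0.55 without WT_3 to −0.14 without WT_4. *MOB1B* was at 14.7, 7.57, 11.5, 19.9 and 8.69 TPM in WT and at 10.6, 8.44, 31.1 and 6.56 TPM in KO embryos, with the highest value in TE_3 and the lowest in TE_4. The log2 fold change was 0.00015 (SE 0.44), between −0.44 without TE_3 and 0.25 without TE_4, and −0.0095 with a pseudocount of 0.1 TPM. The proteins of these genes are close relatives, and how pseudoalignment shared reads between their transcripts is not stated in the sources used here.

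*NF2*, the scaffold known as Merlin, measured 36.9, 26.7, 19.7, 16.6 and 26.8 TPM from WT_1 to WT_5, against 23.9, 25.7, 20.6 and 15.6 TPM from TE_1 to TE_4. Only TE_4 was outside the WT range, just below it. The means were 25.4 ± 7.82 TPM (SD, n = 5) among WT and 21.4 ± 4.41 TPM (SD, n = 4) among KO embryos, which gave a log2 fold change of −0.20 (SE 0.29, limma-adjusted p = 0.982). With 1 embryo left out it ran from −0.34 (without WT_4) to −0.061 (without WT_1).

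The angiomotins, which link NF2 and YAP at the membrane, leaned in opposite directions within a wide overlap. *AMOT* was at 5.85, 2.37, 5.54, 4.4 and 4.79 TPM in WT and at 3.25, 5.60, 7.48 and 1.58 TPM in KO embryos, with TE_3 above and TE_4 below the WT range. Its log2 fold change was −0.13 (SE 0.39), between −0.38 without TE_3 and 0.19 without TE_4. *AMOT* is an X-linked gene, and the sex of the embryos is not given in the labels. *AMOTL2* was at 22.9, 8.85, 9.71, 6.11 and 9.71 TPM in WT and at 8.28, 13.4, 15.5 and 14.2 TPM in KO embryos. TE_2, TE_3 and TE_4 were above 4 of the 5 WT embryos, and WT_1 was above every other embryo. Its log2 fold change was 0.25 (SE 0.37, limma-adjusted p = 0.982), between 0.077 without WT_4 and 0.51 without WT_1. The remaining angiomotin, *AMOTL1*, averaged 1.06 ± 0.503 TPM (SD, n = 5) among WT and 0.568 ± 0.177 TPM (SD, n = 4) among KO embryos (log2 fold change −0.37, SE 0.22, limma-adjusted p = 0.897). In all embryos *AMOTL1* was thus far less abundant than *AMOTL2*.

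The cascade holds 4 pairs of paralogs, and their balance within an embryo can be followed with each embryo as its own reference. It was measured as the log2 ratio of (TPM + 1), first gene over second. *STK3* exceeded *STK4* in 9 of 9 embryos, with a mean log2 ratio of 1.37 ± 0.491 (SD, n = 9; exact sign-flip permutation test, two-sided, p = 0.0039, the smallest possible, adjusted p = 0.0078 over 4 pairs). *AMOTL2* exceeded *AMOT* in 9 of 9, with a log2 ratio of *AMOT* to *AMOTL2* of −1.23 ± 0.647 (SD, n = 9; the same exact p and adjusted p). *MOB1A* was above *MOB1B* in 8 of 9 embryos, all but TE_3 (mean log2 ratio 0.61, exact permutation p = 0.043, adjusted p = 0.0573). *LATS2* was above *LATS1* in 6 of 9, all but WT_4, TE_2 and TE_4 (mean log2 ratio of *LATS1* to *LATS2* −0.56, and −0.91 with a pseudocount of 0.1 TPM, exact permutation p = 0.0586, adjusted p = 0.0586). Of the 4 pairs, *STK3* with *STK4* and *AMOT* with *AMOTL2* held the same order in all 9 embryos. For these pairs too, how pseudoalignment shared reads is not stated, and the sign-flip test cannot detect a bias common to all embryos.

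**Figure D3:**
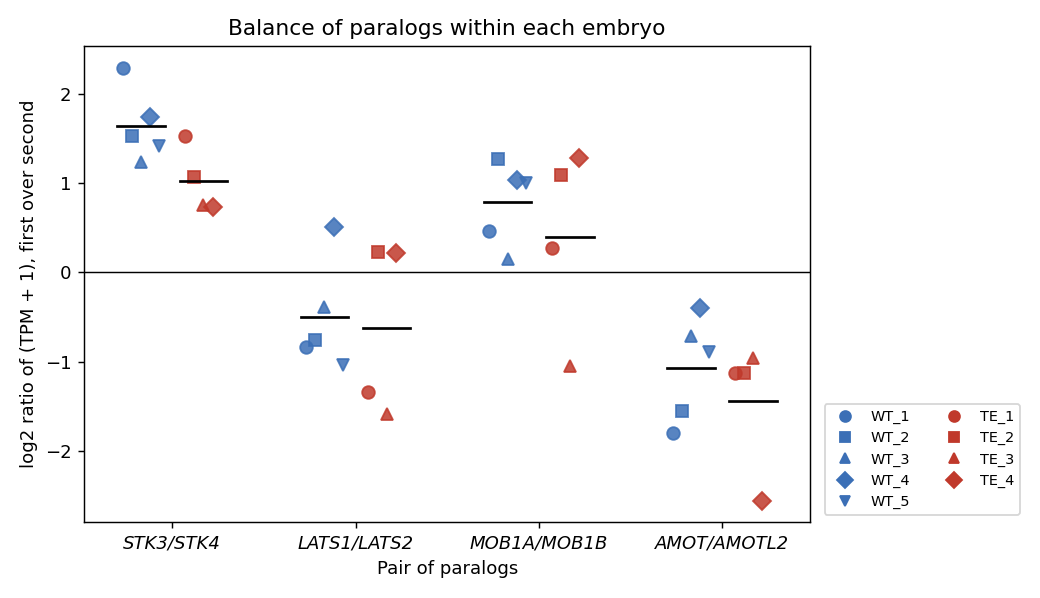
Log2 ratio of (TPM + 1) for 4 pairs of paralogs, 1 symbol per embryo, WT in blue and KO in red, with a bar at the mean of each genotype and a line at equal levels. *STK3*/*STK4* lies above the line and *AMOT*/*AMOTL2* below it in all 9 embryos, and TE_2, TE_3 and TE_4 have the 3 lowest *STK3*/*STK4* ratios.

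Between genotypes, the balance of the MST kinases had the smallest p of the 4 pairs. The log2 ratio of *STK3* to *STK4* was 2.29, 1.53, 1.24, 1.73 and 1.42 in WT_1 to WT_5 and 1.53, 1.07, 0.752 and 0.735 in TE_1 to TE_4. TE_2, TE_3 and TE_4 were below every WT embryo, and TE_1 was within the WT range, although it had the lowest level of both kinases. It averaged 1.64 ± 0.405 (SD, n = 5) among WT and 1.02 ± 0.372 (SD, n = 4) among KO embryos, which puts KO minus WT at −0.62 (two-sided exact permutation, p = 0.0476, or 0.190 when adjusted over 4 pairs). The difference was thus not past the threshold once the 4 pairs were accounted for, and with a pseudocount of 0.1 TPM it was −0.65 with an exact permutation p of 0.0952. With 1 embryo left out, the exact permutation p was under 0.05 only without TE_1 (−0.79, p = 0.0357), and the difference was smallest without WT_1 (−0.46, p = 0.0857). The ratios of *LATS1* to *LATS2* (KO minus WT −0.12, and −0.56 with a pseudocount of 0.1 TPM, exact permutation p = 0.857 and 0.508), *MOB1A* to *MOB1B* (−0.39, p = 0.587) and *AMOT* to *AMOTL2* (−0.37, p = 0.444, and −0.0016 without TE_4) differed by less than their spread. Summed over each group, the MST kinases were at 19.9 to 27.3 TPM in WT and 9.25 to 26.9 TPM in KO embryos, the LATS kinases at 4.86 to 9.99 and 1.98 to 7.09 TPM, and the MOB1 genes at 24.4 to 61.9 and 23.8 to 45.6 TPM. TE_1 was the lowest of the 9 embryos in these 3 sums. It was not for the angiomotins (*AMOT*, *AMOTL1* and *AMOTL2*), which summed to 11.6 to 30.0 TPM in WT and 12.1 to 23.4 TPM in KO embryos.

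A larger spread among KO than among WT embryos was not more common in the 10 genes than over all genes tested. In *STK4* and *LATS1*, 2 of the 10 genes, all 4 KO values were outside the WT range, above it in some embryos and below it in others. All KO values were outside the WT range, on either or both sides, in 9.69% of the genes tested. The SD of log2(TPM + 1) was larger in KO than in WT for 6 of 10 genes (*STK3*, *STK4*, *SAV1*, *LATS1*, *MOB1B* and *AMOT*), beside 70.1% of all genes. It was 0.88 in KO and 0.20 in WT for *STK4*, and 1.06 and 0.38 for *LATS1*. Among genes within a factor of 2 of the same mean TPM, the SD of log2(TPM + 1) within genotypes was above that of 79.4% for *LATS1*, 78.0% for *SAV1*, 74.6% for *MOB1B* and 55.3% for *STK4*, and above that of 23.6% for *NF2* and 26.7% for *STK3*. TE_1 and TE_3 were the embryos below the WT range for *SAV1* and *LATS1* alike.

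**Figure D4:**
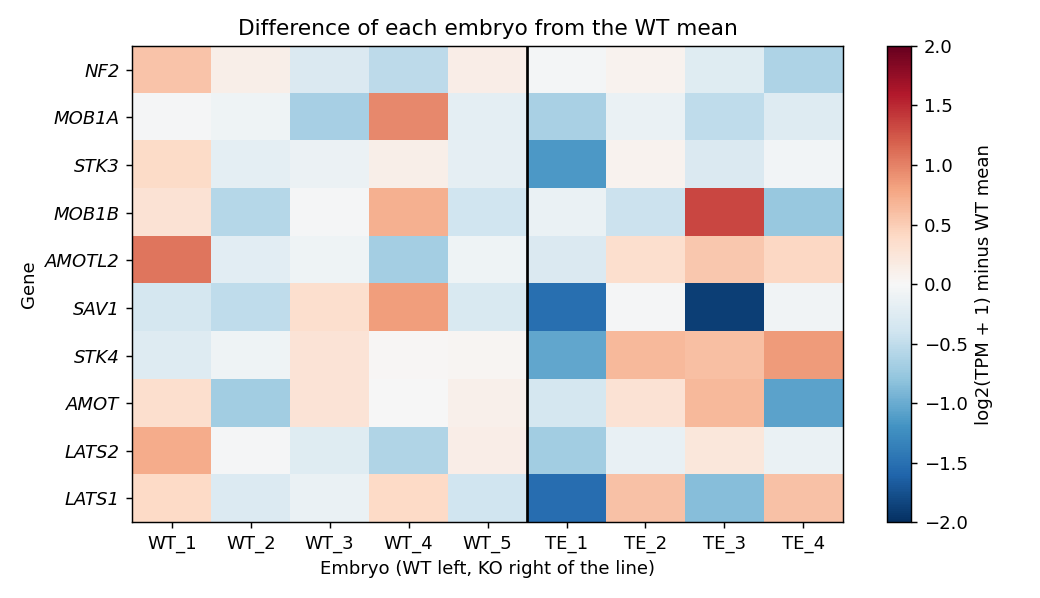
Difference of each embryo from the WT mean of log2(TPM + 1) for the 10 genes, blue below and red above, WT embryos left and KO embryos right of the line. The darkest blue cells are *SAV1* in TE_3 and TE_1 and *LATS1* in TE_1, and the darkest red cell is *MOB1B* in TE_3.

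TE_1 was the lowest of the 9 embryos for 4 of the 10 genes, *STK3*, *STK4*, *LATS1* and *LATS2*. It was also the lowest for 28.0% of all genes tested. Whether its low kinase values are part of that was not tested. TE_4 was lowest for 3 genes (*MOB1B*, *NF2* and *AMOT*) and highest for *STK4* and *LATS1*. WT_1 was highest for 4 genes, *STK3*, *LATS2*, *NF2* and *AMOTL2*. With values scaled by size factors, which raise TE_1, 7 of the 10 genes were lower in KO, beside 50.8% of all genes.

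The 10 genes were also set against lineage markers of the same embryos, scored as the mean z-score of 7 trophectoderm or of 5 epiblast markers. The epiblast score includes *POU5F1*, which is not specific to the epiblast in bovine blastocysts. These 20 relations were added after the values were seen, and p-values were adjusted over the 20. *NF2* rose with the trophectoderm score across the 9 embryos (Pearson's r = 0.914, exact permutation p = 0.00042, adjusted p = 0.0085; Spearman's rho = 0.900, exact permutation p = 0.0020, adjusted p = 0.0406). The highest *NF2* value was that of WT_1, which also had the highest score (0.861), and the lowest values were those of TE_4 and WT_4, with the lowest scores (−1.10 and −0.999). Pearson's r was 0.800 without TE_4 and WT_4, the embryos farthest from the median score, 0.913 after the mean of each genotype was removed, and 0.874 with values scaled by size factors. The gene and the markers come from the same library, and no batch is named in the labels. A relation as strong in either direction was found for 0.370% of the 14592 genes tested that are not among the markers. *AMOTL2* fell with the epiblast score (Pearson's r = −0.846, exact permutation p = 0.0042, adjusted p = 0.0421; Spearman's rho = −0.800, exact permutation p = 0.0138, adjusted p = 0.138), from 22.9 TPM in WT_1, with the lowest score, to 6.11 TPM in WT_4, with the highest. Without these embryos, the farthest from the median, Pearson's r was −0.579, so part of its strength comes from them. Leaving them out also narrows the range of scores. With 1 embryo left out, Pearson's r was −0.922 to −0.759. Over all 9 embryos, a relation as strong in either direction was found for 0.726% of 14594 genes. The trophectoderm score was 0.123 ± 0.755 (SD, n = 5) among WT and −0.153 ± 0.767 (SD, n = 4) among KO embryos, and the epiblast score 0.145 ± 0.878 and −0.182 ± 0.505, with overlap between genotypes in both (exact permutation p = 0.619 and 0.540). The hypoblast score, not set against the 10 genes, was 0.349 ± 0.694 in WT and −0.436 ± 0.254 in KO (exact permutation p = 0.0952). The other 18 relations had adjusted p-values of 0.166 or more for Pearson's r. Among them, without TE_4 and WT_4, *MOB1A* (r = 0.979), *LATS1* (0.745) and *STK3* (0.739) had values near or above that of *NF2* with the trophectoderm score. Without these embryos *NF2* thus did not stand apart. Over all 9 embryos Pearson's r was −0.20 for *MOB1A*, −0.040 for *LATS1* and 0.20 for *STK3*, against 0.914 for *NF2*.

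**Figure D5:**
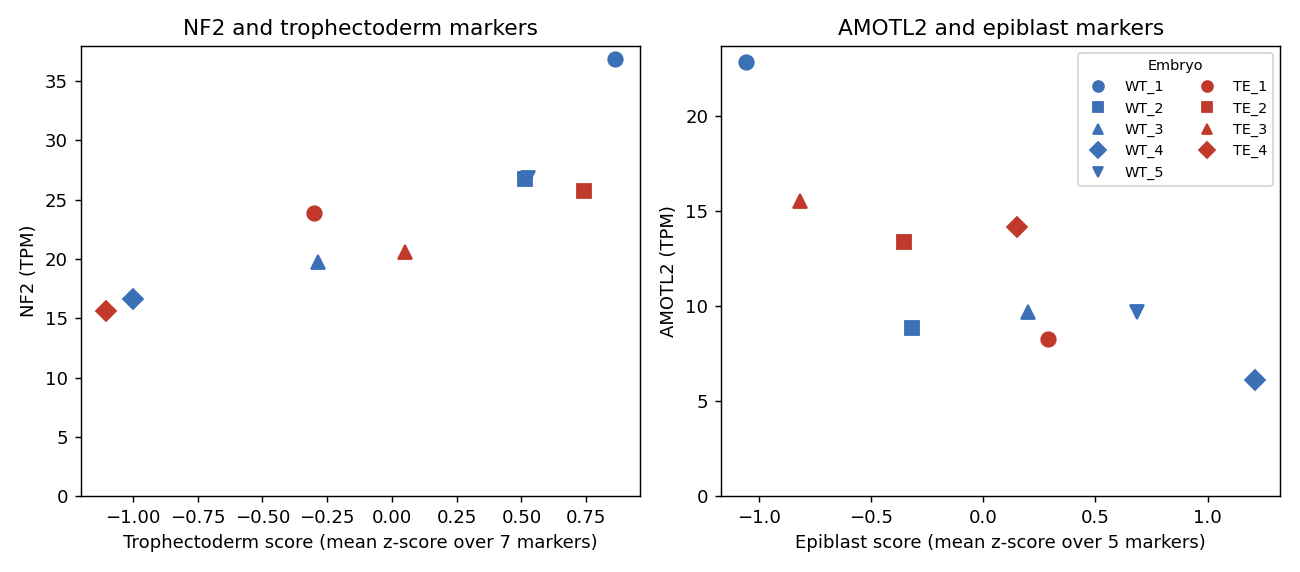
Left, *NF2* in TPM against the trophectoderm score (mean z-score of log2(TPM + 1) over 7 markers); right, *AMOTL2* in TPM against the epiblast score (5 markers), 1 symbol per embryo, WT in blue and KO in red. *NF2* runs from 15.6 TPM in TE_4 to 36.9 TPM in WT_1, and *AMOTL2* from 6.11 TPM in WT_4 to 22.9 TPM in WT_1.

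Around these 10 genes, 58 other genes of the pathway have a row in the table, of which 56 were tested. None of the 56 had an adjusted or an unadjusted p-value under 0.05 (limma), beside 5.90% of all genes tested with an unadjusted one. A lower mean in KO was found for 37 (66.1%, beside 55.8% of all genes tested) and a higher one for 19, with a median log2 fold change of −0.19. TE_1 was the lowest embryo for 28 of the 56, beside 28.0% of all genes tested. Without TE_1 the number lower in KO was 28 and the median −0.020, beside 45.7% and 0.038 over all genes. Of the 12 genes of STRIPAK, the phosphatase complex that removes phosphate from MST kinases, 7 were lower and 5 higher, and *PPP2CA*, its catalytic subunit, averaged 315 ± 39.8 TPM (SD, n = 5) among WT and 359 ± 145 TPM (SD, n = 4) among KO embryos. Of 7 MAP4K kinases, which can act on LATS in parallel to MST, 5 were lower and 2 higher. Of 6 RASSF adaptors 5 were lower, as were 7 of 9 genes for the breakdown of pathway proteins, ubiquitin ligases and casein kinases among them. Both NDR kinases had a higher mean, *STK38* by 0.49 (SE 0.51) and *STK38L* by 0.077 (SE 0.37) on the log2 scale. Without TE_2 *STK38* was at 0.14, and without TE_3 *STK38L* was at −0.23. *RASSF1*, an adaptor that binds MST kinases, had the smallest p of the list, with 40.8 ± 10.4 TPM (SD, n = 5) among WT and 26.4 ± 11.2 TPM (SD, n = 4) among KO embryos (log2 fold change −0.65, SE 0.30, limma-adjusted p = 0.836). *WTIP*, of a family of LIM proteins that restrain LATS, followed at 13.8 ± 5.69 and 6.87 ± 4.0 TPM (log2 fold change −1.01, SE 0.48, limma-adjusted p = 0.846, and −0.54 without TE_4). *EZR*, coding for ezrin, a relative of NF2, was the most abundant gene of the list, at 738 to 3922 TPM in WT and 1382 to 3778 TPM in KO.

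The values of the genotypes did not overlap for 1 of the 56 genes, *MOB2*, named here after its values were seen (2.03% of all genes tested had no overlap). MOB2 binds the NDR kinases, relatives of LATS. It was at 18.9, 24.3, 27.5, 24.5 and 25.5 TPM in WT and at 34.4, 32.0, 34.2 and 28.4 TPM in KO embryos. Its log2 fold change was 0.41 (SE 0.22, limma-adjusted p = 0.891). The cadherin genes *FAT4* and *DCHS1*, which feed into the pathway in other tissues, were at or near 0, with at most 0.0123 and 0.0501 TPM in any embryo.

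Downstream of the kinases, *YAP1* was at 12.9, 12.4, 10.2, 10.6 and 14.4 TPM in WT and at 5.09, 9.76, 7.15 and 4.71 TPM in KO embryos, without overlap (log2 fold change −0.81, SE 0.29, limma-adjusted p = 0.727). Its unadjusted limma p was 0.0180, and 5.90% of all genes tested had one under 0.05. With 1 embryo left out, the log2 fold change of *YAP1* ran from −0.98 (without TE_2) to −0.68 (without TE_4). *WWTR1* was at 24.7 to 41.8 TPM in WT and 29.1 to 77.7 TPM in KO, and *TEAD1*, *TEAD2* and *TEAD3* had log2 fold changes of 0.24, −0.18 and −0.039. None of the 10 upstream genes showed such a separation, and 0 of 10 is near the share over all genes tested, 2.03%.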

How the data were processed

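The authors sequenced 1 library per D8 blastocyst (5 WT and 4 KO). Per the labels, FastQC, fastp and kallisto were used; versions, genome build and annotation are not given in the sources used here. The labels describe another RNA extraction and library kit than the paper. The deposited values are TPM per gene, with each library summing to 1000000 and read counts not kept, so DESeq2, which the study ran on counts, was not used. Columns were assigned to genotypes by name; which column is which deposited sample is not given, and 0 columns were left out.

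Genes with a median above 0.1 TPM (14599 genes) were tested on log2(TPM + 1) with limma 3.58.1 in R 4.3.3 (trend), adjusted by Benjamini-Hochberg over all genes. Changes refer to this scale, which understates those of low genes. Single genes and ratios were compared by exact permutation over all 126 splits of embryos (smallest p 0.0159), and the levels of paralogs by exact sign-flip permutation over 9 embryos. The script was tested on simulated data. Size factors are medians of ratios over genes above 0 in every library. Python 3.11.15, numpy 2.4.6, pandas 2.3.3, scipy 1.17.1 and matplotlib 3.10.9 were used.

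The 10 genes and the lists were chosen with earlier results of these data known. Named among 59 other Hippo symbols (58 with a row, 56 tested) were *AMOTL1*, genes with an unadjusted p under 0.05 or else the 2 with the smallest p, and the 2 most abundant. *MOB2*, *FAT4* and *DCHS1* were named outside this rule, after their values were seen. Marker lists covered trophectoderm, epiblast, hypoblast, cumulus and granulosa cells, blood and sperm. The alternatives tried were no filter, a median above 1 TPM, a pseudocount of 0.1 TPM, size factors, quantile normalization, robust eBayes, no trend, array weights, and each embryo left out. No sequences or coordinates are given.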

Additional observations from a re-analysis of the deposited data

Results flagged for a closer look

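Within each genotype, the highest and lowest embryo were compared with the rest by Dixon's ratio on log2(TPM + 1) or on the log2 ratio of paralogs, in 42 groups of 4 or 5 embryos. Chance marks about 1 in 20 such groups, and 2 were marked. *STK4* in TE_1, at 1.90 TPM, lay far below the other KO embryos (8.08 to 9.75 TPM; ratio of gap to range 0.871). TE_1 also had the lowest size factor of the 9 libraries, 0.776, and the part of that in the value was not tested. The log2 ratio of *AMOT* to *AMOTL2* in TE_4 was −2.55, against −1.13 to −0.963 in the other KO embryos (ratio of gap to range 0.896). TE_4 had the lowest *AMOT* value of all embryos, 1.58 TPM.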

How the results depend on the processing

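None of the 17 alternatives gave any of the 10 genes an adjusted p-value under 0.05 (limma, lowest 0.556 without TE_2). Over all genes, the 3 calls became 8 with a median above 1 TPM, 8 with a pseudocount of 0.1 TPM, 6 with quantile normalization, 6 with robust eBayes, 5 with size factors, 5 without trend, and 0 to 10 with 1 embryo left out. Fold changes near 0 turned in sign with 1 embryo left out for *LATS1* (−0.60 to 0.11), *MOB1B* (−0.44 to 0.25), *AMOT* (−0.38 to 0.19), *TEAD2* (−0.31 to 0.041), *TEAD3* (−0.25 to 0.15) and *MST1* (−0.26 to 0.15). A pseudocount of 0.1 TPM gave −0.79 for *LATS1* (−0.30 as reported), −0.0095 for *MOB1B* and 0.060 for *MST1*, size factors 0.015 for *TEAD3*, and quantile normalization 0.057 for *TEAD3* and 0.0069 for *MST1*. The genotype difference of *STK3*/*STK4* was −0.65 with a pseudocount of 0.1 TPM and −0.79 to −0.46 with 1 embryo left out, that of *LATS1*/*LATS2* −0.56 and −0.40 to 0.21, and that of *MOB1A*/*MOB1B* −0.68 to 0.098 with 1 embryo left out. Within an embryo, the mean *LATS1*/*LATS2* ratio was −0.91 with a pseudocount of 0.1 TPM and −0.69 to −0.43 with 1 embryo left out, and *MOB1A*/*MOB1B* 0.53 to 0.82. The causes were not tested. The median log2 fold change of all genes was −0.046, −0.0074 with size factors and 0.016 with quantile normalization. The reads behind the TPM values are unknown, which limits the low *LATS1* values in particular. No paired analysis was possible because each column is a separate embryo and the column numbers are not described as pairs.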
